A study of Homo sapiens with 12 samples.

Results

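The aryl hydrocarbon receptor pathway and xenobiotic-handling enzymes were examined in HK-2 cells through 10 genes, AHR, ARNT, TIPARP, CYP1B1, POR, EPHX1, GSTP1, GSTM3, GSTA4 and ABCC2. They were chosen by name, from a list of receptor, target, enzyme and transporter genes, out of 19775 genes that at least 1 probe set of the array names alone. A total of 21 probe sets name 1 of the 10 genes alone, and each gene was led by whichever of its sets averaged highest on the 12 arrays. HK-2 cells are human epithelial cells of the kidney's proximal tubule that were made immortal. The 4 groups, of 3 biological replicates each, were cells given a high dose of Nnm for 24 h, control cells at 24 h, cells given a high dose of Nnm for 48 h, and control cells at 48 h. The control cells received the vehicle. The labels give the compound only as Nnm, with no concentration and no named vehicle. All groups grew in the same medium, which held hydrocortisone, a glucocorticoid, beside EGF and insulin. A single immortalized line cannot stand for the cell types of a kidney.

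AHR is a transcription factor that chaperones hold in the cytosol until a planar aromatic ligand binds. It then enters the nucleus, pairs with ARNT and binds DNA at sites with the core GCGTG, which raises transcription of CYP1A1, CYP1A2, CYP1B1, NQO1 and of the feedback genes AHRR and TIPARP. Cytochrome P450 enzymes oxidise foreign compounds with electrons that POR passes on from NADPH, epoxide hydrolases open the reactive epoxides that can result, glutathione S-transferases attach glutathione, and pumps such as ABCC2 export the conjugates. In the kidney this system is concentrated in the proximal tubule, where many nephrotoxic compounds are taken up and processed.

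The promoters of TIPARP and GSTP1 are shown because these are the genes called lower in Nnm cells. RefSeq start sites on GRCh38.p14 gave windows from 250 bases before to 50 bases after the start for 8 of the 10 genes. CYP1B1 and POR had no window and were not searched. The windows were searched on both strands for GCGTG, for the longer TNGCGTG, which contains it, and for the antioxidant response motif TGACNNNGC. TIPARP had 3 windows, and the 250 bases before the first of its start sites, chr3:156674340-156674589 on the plus strand, held GCGTG 2 times on the minus strand, in capitals below as CACGC. The other TIPARP windows held no GCGTG. GSTP1 had 1 window, with no GCGTG, and the stretch at chr11:67583716-67583784 on the plus strand holds 1 antioxidant response match in capitals, from base -66 to base -58 before the start. All sequences run 5′ to 3′.
TIPARP: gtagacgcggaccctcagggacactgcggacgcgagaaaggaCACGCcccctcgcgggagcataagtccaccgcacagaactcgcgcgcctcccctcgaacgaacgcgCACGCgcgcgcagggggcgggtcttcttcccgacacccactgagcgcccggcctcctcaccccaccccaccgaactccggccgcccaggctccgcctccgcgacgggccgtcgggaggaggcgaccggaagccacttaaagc
GSTP1: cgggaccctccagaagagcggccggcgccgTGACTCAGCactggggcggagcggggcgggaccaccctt
Of all 35116 windows of the same length, 36.5% held GCGTG, 5.51% held TNGCGTG and 13.3% held TGACNNNGC. These shares are per window, and TIPARP and EPHX1 had 3 windows each. Among the 8 genes with windows, GCGTG was also present in windows of AHR, EPHX1 and GSTM3, and TGACNNNGC in windows of ARNT, EPHX1 and GSTA4. TNGCGTG was in none of the windows of these genes, and the ABCC2 window held none of the 3 motifs. A match describes the letters only and shows no binding.

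Of the 22829 probe sets that passed the filter, a log2 GCRMA value above 4 on at least 3 of the 12 arrays, 14.7% were called at 24 h and 10.2% at 48 h by limma at an adjusted p under 0.05. Array medians lay between 2.91 and 2.98, and 22023 to 22228 probe sets an array exceeded the filter level. The Nnm arrays numbered 2 stood apart at both times. On the first principal component, which held 57.4% of the variance, they lay at -16.1 and -19.8, while the other Nnm arrays lay between 68.6 and 87.8 and the control arrays between -49.6 and -44.2. Values without these 2 arrays are given beside the results of the 10 genes that they move, and their part in the results was not otherwise tested. Same-numbered arrays deviated together, so a fit with the replicate number as a block is quoted where it changes the call of a gene named here. Of 16 proximal tubule markers, 10 stayed under the filter, among them LRP2, CUBN, AQP1 and SLC34A1, while PAX8, KRT8, KRT18, CDH2 and DPP4 were above it, of which CDH2 rose at 48 h (0.75, adjusted p = 0.0483). The block also called CDH2 higher at 24 h (adjusted p = 0.0387), DPP4 higher at 48 h (1.05, adjusted p = 0.00957) and KRT8 lower at 24 h (-0.59, adjusted p = 0.0222). Without the Nnm arrays numbered 2, KRT18 was called lower at 24 h (-0.60) and higher at 48 h (0.59). PAX8 (0.43), DPP4 (0.82) and CDH2 (0.95) were called higher at 48 h in that fit. Of markers of other cell types, 2 of podocytes, 1 of endothelium and 2 of fibroblasts were tested and none was called over all arrays without the block, and no distal nephron or immune cell marker passed the filter. With the block SYNPO was called higher at 24 h (0.60, adjusted p = 0.0462), PODXL higher at 48 h (0.71, adjusted p = 0.0308) and COL1A1 lower at 24 h (-0.80, adjusted p = 0.0334). In the fit without the Nnm arrays numbered 2, SYNPO at 24 h (0.78), PODXL at 48 h (0.96), PECAM1 at 48 h (0.68), COL1A1 at both times (-1.05 and -0.76) and DCN at 24 h (-0.65) were called. Of all tested probe sets, the block called 29.3% at 24 h and 22.1% at 48 h. The fit without the Nnm arrays numbered 2 called 47.0% and 42.1%. The part of these markers in the results was not tested.

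Of the 10 genes 9 were tested, and their lead probe sets gave 1 call at 24 h and 2 at 48 h, all lower with Nnm. TIPARP fell at both times and GSTP1 at 48 h, while CYP1B1 was called higher at 48 h on 2 of its 4 probe sets but not on the leading one. The calls over all probe sets that passed the filter were split at 24 h into 7.42% lower and 7.32% higher, and at 48 h into 4.44% lower and 5.74% higher. The median change of the 9 genes was -0.17 at 24 h and -0.05 at 48 h on the log2 scale, beside 0.00 and 0.02 for all 10966 genes. For 3 of the 9 genes at each time, all Nnm arrays lay on one side of all controls, against a background of 37.2% of probe sets at 24 h and 34.8% at 48 h. With the replicate block the calls numbered 3 at 24 h, against a background of 29.3%, and 4 at 48 h, against 22.1%. Without the Nnm arrays numbered 2 they numbered 4 and 6, against 47.0% and 42.1%.

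**Figure D1:**
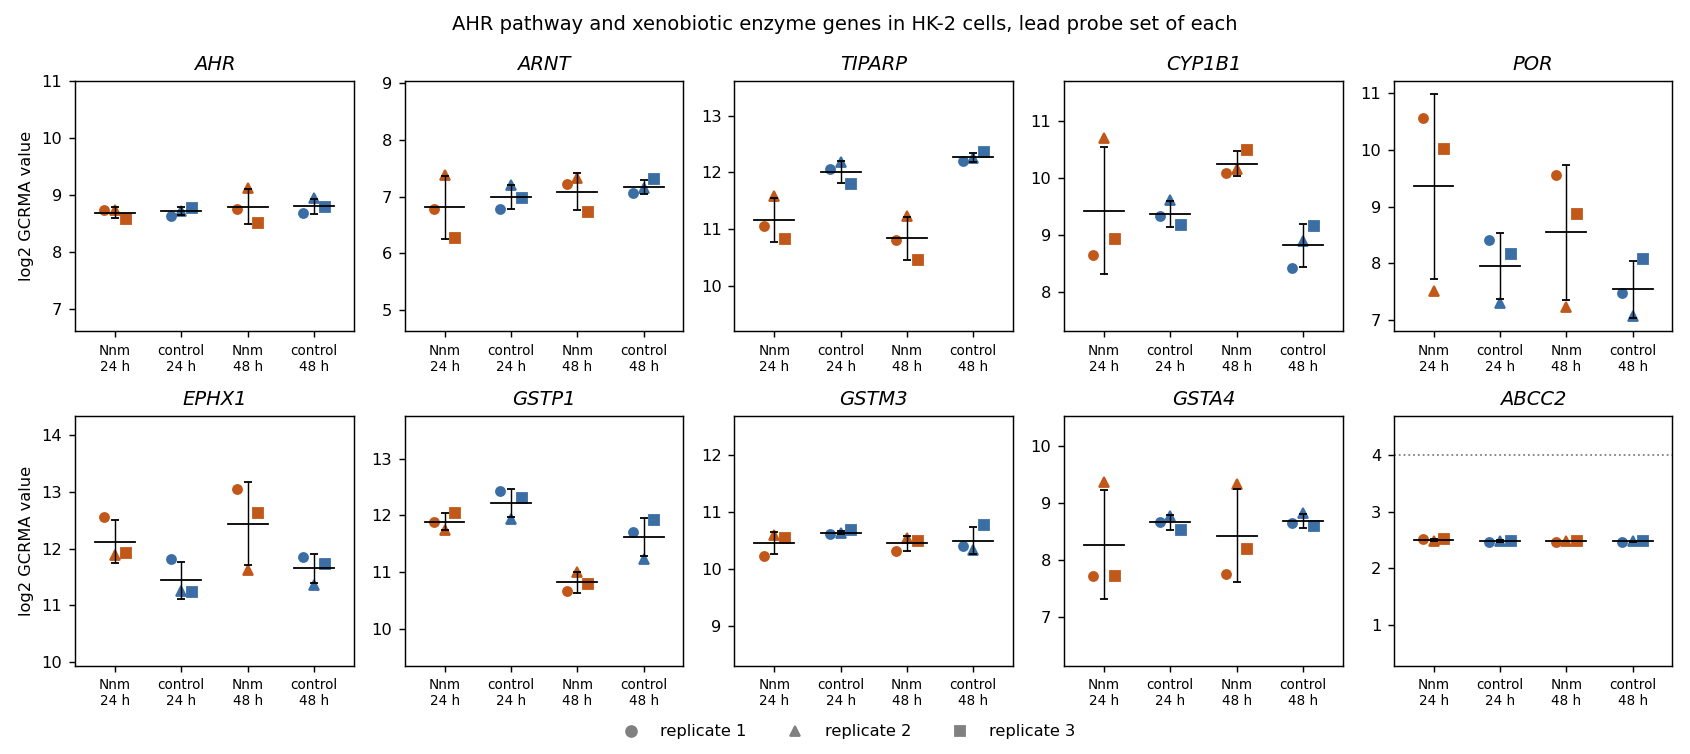
Log2 GCRMA value of the leading probe set of each gene (y axis, 1 panel a gene, each spanning the same number of log2 units) in Nnm cells (orange) and control cells (blue) at 24 h and 48 h; symbols mark the replicate number, horizontal lines the mean and error bars the SD of 3 arrays, and the dotted line in the ABCC2 panel the filter at log2 4. The TIPARP points of Nnm cells lie under those of control cells at both times, and the Nnm arrays numbered 2 lie with the controls for POR and above the other Nnm arrays for GSTA4.

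Neither receptor subunit was called at either time. AHR, the ligand-binding subunit, measured 8.74, 8.74 and 8.58 log2 units on the Nnm arrays of 24 h (replicates 1, 2 and 3), against 8.63, 8.72 and 8.77 in control cells. At 48 h it measured 8.75, 9.13 and 8.50 in Nnm cells, against 8.68, 8.94 and 8.79 in control cells. The groups overlapped at both times, and the highest value was that of Nnm replicate 2 at 48 h. The log2 change was -0.02 at 24 h (95% interval -0.37 to 0.33, adjusted p = 0.939) and -0.01 at 48 h (-0.36 to 0.34, adjusted p = 0.978). These intervals leave room for changes of up to about 0.37 log2 units in either direction.

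ARNT, the obligate partner of AHR in DNA binding, measured 6.78, 7.38 and 6.28 in Nnm cells at 24 h, against 6.79, 7.20 and 6.97 in control cells. At 48 h it measured 7.22, 7.32 and 6.73 in Nnm cells, against 7.06, 7.15 and 7.31 in control cells. Nnm replicate 3 was the lowest array at each time, and the groups overlapped at both. The change was -0.17 at 24 h (-0.75 to 0.40, adjusted p = 0.667) and -0.08 at 48 h (-0.66 to 0.50, adjusted p = 0.860). It was -0.46 (adjusted p = 0.0996) and -0.20 (adjusted p = 0.479) without the Nnm arrays numbered 2. Of its 7 probe sets, 4 passed the filter and none of these was called over all arrays, and the others were above log2 4 on no array. One of the 4, 218222_x_at, did not overlap at 24 h, at 5.18 ± 0.56 in Nnm cells and 5.76 ± 0.14 in control cells (SD, n = 3 arrays each), with a change of -0.58 (adjusted p = 0.124 in limma), and was called without the Nnm arrays numbered 2 (-0.82, adjusted p = 0.0157).

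TIPARP, an ADP-ribosyltransferase that AHR induces and that represses AHR in turn, fell in Nnm cells at both times. It measured 11.06, 11.59 and 10.83 in Nnm cells at 24 h, against 12.06, 12.19 and 11.79 in control cells. At 48 h it measured 10.82, 11.23 and 10.46 in Nnm cells, against 12.20, 12.25 and 12.36 in control cells. Every Nnm array lay under every control array of its time, and replicate 2 was the highest of the Nnm arrays at both times. The mean was 11.16 ± 0.39 in Nnm cells and 12.01 ± 0.20 in control cells at 24 h, a log2 change of -0.85 (SE 0.23, adjusted p = 0.0374), which is 1.81-fold lower. At 48 h it was 10.84 ± 0.38 in Nnm cells and 12.27 ± 0.08 in control cells, a log2 change of -1.43 (SE 0.23, adjusted p = 0.0104), which is 2.69-fold lower. Arrays of bulk RNA cannot tell less transcript per cell from fewer cells that express it. The 48 h call held in all 12 fits that each left out 1 array (adjusted p up to 0.0498), but the fit on the 6 arrays of 48 h alone called none of the 10 genes. The 24 h call was lost without Nnm replicate 1 or 3 of that time or any 1 of the 6 control arrays (changes of -0.96 to -0.69, adjusted p = 0.0539 to 0.138), and adjusted p was 0.101 with no filter on low values. It was lost as well in the fit on the 6 arrays of 24 h alone. Without the Nnm arrays numbered 2 the changes were -1.07 and -1.63.

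CYP1B1, the P450 enzyme of the family that acts on polycyclic hydrocarbons and oestrogens outside the liver, lay higher on every Nnm array than on every control array at 48 h. Its leading probe set, 202436_s_at, measured 8.65, 10.70 and 8.93 in Nnm cells at 24 h, against 9.33, 9.62 and 9.18 in control cells. At 48 h it measured 10.09, 10.16 and 10.49 in Nnm cells, against 8.41, 8.90 and 9.16 in control cells. At 24 h Nnm replicate 2 was the highest of all arrays while replicates 1 and 3 lay under every control array. At 48 h Nnm replicate 2 lay with the other Nnm arrays, above all controls. The change at 24 h was 0.06 (95% interval -0.93 to 1.04, adjusted p = 0.943), and -0.58 without the Nnm arrays numbered 2 (adjusted p = 0.0749). The change at 48 h was 1.42 (SE 0.44, 95% interval 0.43 to 2.41), 2.68-fold, and missed the threshold (adjusted p = 0.0659). It was called with the replicate block (adjusted p = 0.0370), without Nnm replicate 2 of 24 h (adjusted p = 0.00602) and without both Nnm arrays numbered 2 (1.46, adjusted p = 0.00141).

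Of the other 3 probe sets of CYP1B1, 2 were called higher in Nnm cells at 48 h. Probe set 202437_s_at measured 10.07, 9.63 and 10.26 in Nnm cells at 48 h, against 8.13, 8.60 and 8.89 in control cells, and rose by 1.44 (SE 0.35, adjusted p = 0.0332). Probe set 202435_s_at measured 9.37, 9.14 and 9.66 in Nnm cells at 48 h, against 7.28, 8.02 and 8.10 in control cells, and rose by 1.59 (SE 0.42, adjusted p = 0.0410). On both sets the groups did not overlap at 48 h. Probe set 202434_s_at passed the filter only through 4 Nnm arrays, and no test of it is given. It measured 4.79, 4.03 and 4.81 in Nnm cells at 48 h, against 3.71, 3.96 and 3.97 in control cells. At 24 h the changes were 0.19 (adjusted p = 0.740) for 202437_s_at and 0.18 (adjusted p = 0.789) for 202435_s_at. The sets target 1 transcript and are not independent measurements.

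**Figure D2:**
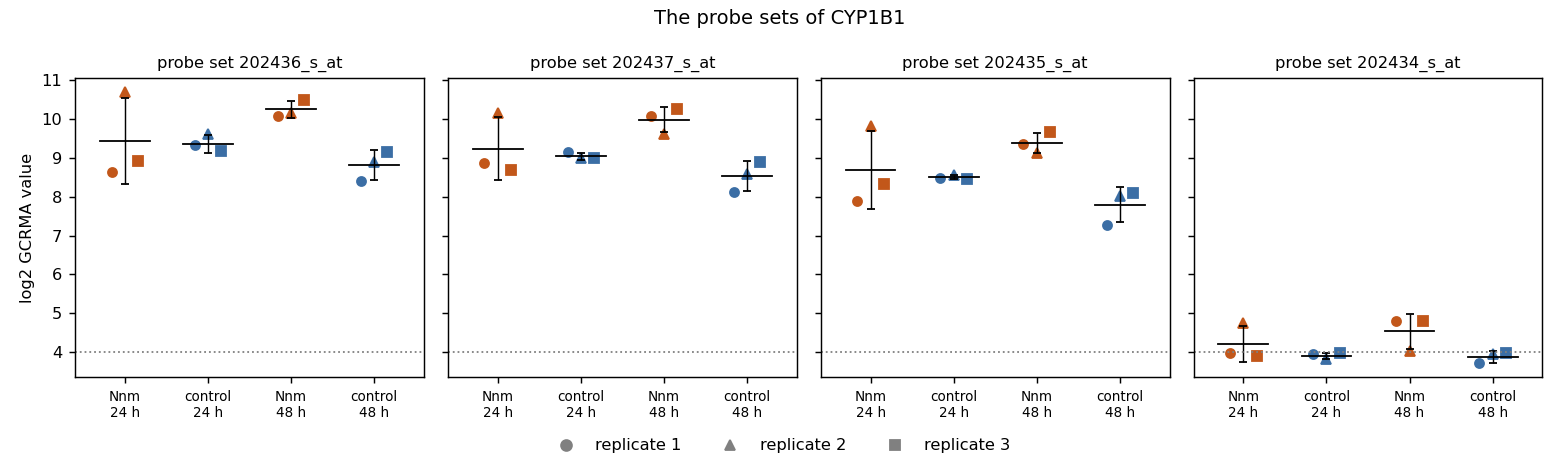
Log2 GCRMA value (y axis) of the 4 probe sets that name CYP1B1 alone, in Nnm cells (orange) and control cells (blue) at 24 h and 48 h; symbols mark the replicate number, horizontal lines the mean, error bars the SD of 3 arrays and the dotted line the filter at log2 4. On every set all Nnm arrays of 48 h lie above all control arrays of 48 h, and at 24 h Nnm replicate 2 lies above the other 5 arrays. Probe set 202434_s_at lies near the filter and passed it only through 4 Nnm arrays, so its separation is not read as a result.

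POR, the reductase that supplies microsomal P450 enzymes with electrons, was split within the Nnm groups. It measured 10.56, 7.51 and 10.02 in Nnm cells at 24 h, against 8.41, 7.31 and 8.16 in control cells. By 48 h the values were 9.55, 7.24 and 8.87 in Nnm cells, against 7.48, 7.07 and 8.08 in control cells. Nnm replicates 1 and 3 lay above every control array at each time, while Nnm replicate 2 lay among the controls. Replicate 2 was also the lowest array of both control groups, and against it Nnm replicate 2 was higher by 0.19 at 24 h and by 0.17 at 48 h. The change was 1.40 at 24 h (95% interval -0.33 to 3.13, adjusted p = 0.221) and 1.01 at 48 h (-0.71 to 2.74, adjusted p = 0.405), with SDs of 1.63 and 1.19 in the Nnm groups. It was called at 24 h with the replicate block (adjusted p = 0.0433) and without Nnm replicate 2 of 24 h alone (2.33, adjusted p = 0.0149). Without Nnm replicate 1 of the time compared, the change was 0.80 at 24 h (adjusted p = 0.579) and 0.52 at 48 h (adjusted p = 0.773). Without both Nnm arrays numbered 2 it was called at both times, at 2.33 (adjusted p = 0.00138) and 1.67 (adjusted p = 0.00905).

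EPHX1, the microsomal epoxide hydrolase, had the higher mean in Nnm cells at both times but was not called over all arrays. It measured 12.56, 11.89 and 11.92 in Nnm cells at 24 h, against 11.82, 11.26 and 11.23 in control cells. By 48 h the values were 13.05, 11.63 and 12.63 in Nnm cells, against 11.86, 11.35 and 11.72 in control cells. The groups did not overlap at 24 h, and at 48 h Nnm replicate 2 lay within the control range. The change was 0.69 at 24 h (95% interval -0.08 to 1.45, adjusted p = 0.178) and 0.79 at 48 h (0.03 to 1.55, adjusted p = 0.151). Against the control array of the same number, each Nnm array was higher at both times, by 0.63 to 0.74 at 24 h and by 0.27 to 1.18 at 48 h. With the replicate block both times were called (adjusted p = 0.0403 and 0.0314). Leaving out 1 Nnm array of 48 h gave a change at 48 h of 1.19 (adjusted p = 0.0120) without replicate 2 and of 0.48 (adjusted p = 0.456) without replicate 1. Without both Nnm arrays numbered 2 the changes were 0.80 (adjusted p = 0.0338) and 1.19 (adjusted p = 0.00665).

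**Figure D3:**
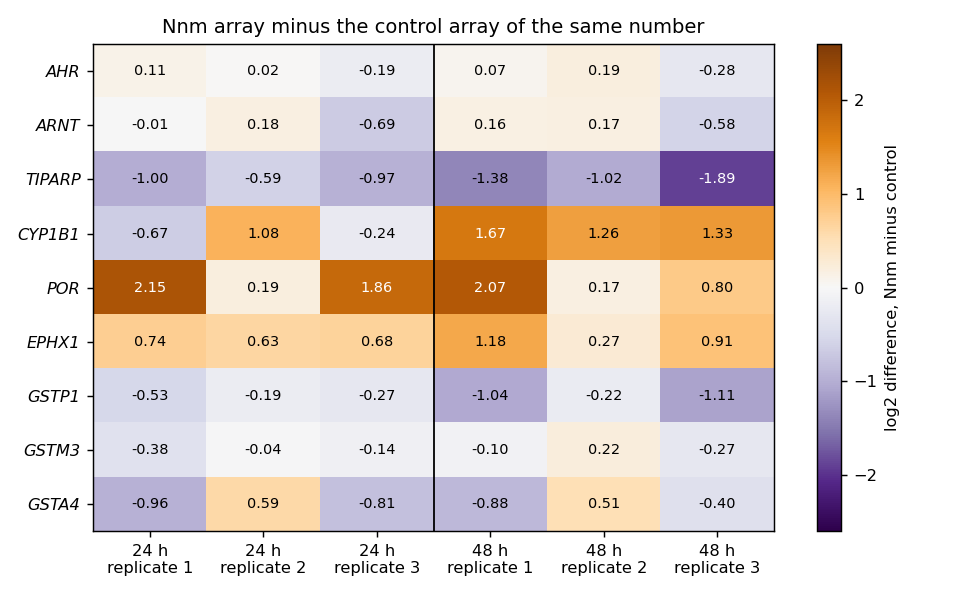
Log2 difference of each Nnm array from the control array of the same number (colour and printed value, orange higher and purple lower in Nnm) for the 9 tested genes (rows) in the replicates of 24 h and 48 h (columns). TIPARP and GSTP1 are lower and POR and EPHX1 higher in all columns, and the columns of replicate 2 are the only ones where GSTA4 is higher, at 0.59 and 0.51.

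GSTP1, the glutathione S-transferase of the pi class, which is abundant in epithelial lines, fell in Nnm cells at 48 h. It measured 11.89, 11.74 and 12.04 in Nnm cells at 24 h, against 12.42, 11.94 and 12.30 in control cells. By 48 h the values were 10.67, 11.01 and 10.79 in Nnm cells, against 11.71, 11.24 and 11.91 in control cells. The groups overlapped at 24 h and did not at 48 h. The 48 h mean was 10.82 ± 0.18 in Nnm cells and 11.62 ± 0.34 in control cells (SD, n = 3 arrays each), a log2 change of -0.79 (SE 0.20, adjusted p = 0.0338 in limma), which is 1.73-fold lower. The change at 24 h was -0.33 (95% interval -0.76 to 0.11, adjusted p = 0.253). The 48 h call was lost without Nnm replicate 1 or 3 of 48 h, control replicate 1 or 3 of 48 h, or control replicate 3 of 24 h (changes of -0.79 to -0.65, adjusted p = 0.0509 to 0.130), with no filter on low values (adjusted p = 0.0826), and in the fit on the 6 arrays of 48 h alone.

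GSTM3, a mu class transferase, measured 10.23, 10.60 and 10.54 in Nnm cells at 24 h, against 10.61, 10.64 and 10.68 in control cells. The 48 h arrays read 10.31, 10.55 and 10.50 in Nnm cells, against 10.41, 10.33 and 10.77 in control cells. The groups did not overlap at 24 h, by a gap between 10.60 in Nnm cells and 10.61 in control cells, and overlapped at 48 h. The change was -0.19 at 24 h (95% interval -0.52 to 0.15, adjusted p = 0.407) and -0.05 at 48 h (-0.39 to 0.29, adjusted p = 0.852). Its other probe set was above log2 4 on no array.

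GSTA4, the alpha class transferase that acts on the aldehydes of lipid peroxidation, measured 7.71, 9.37 and 7.72 in Nnm cells at 24 h, against 8.67, 8.78 and 8.53 in control cells. The 48 h arrays read 7.76, 9.33 and 8.19 in Nnm cells, against 8.65, 8.82 and 8.59 in control cells. Nnm replicates 1 and 3 lay under every control array at each time and Nnm replicate 2 above every control array. The change over all arrays was -0.40 at 24 h (95% interval -1.42 to 0.63, adjusted p = 0.573) and -0.26 at 48 h (-1.28 to 0.77, adjusted p = 0.741). Without both Nnm arrays numbered 2 it was -0.95 (adjusted p = 0.000927) and -0.71 (adjusted p = 0.00515). A further probe set for GSTA4 was above log2 4 on 2 arrays and was not tested.

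ABCC2, an apical pump for glutathione and glucuronide conjugates, lay between 2.46 and 2.51 on all 12 arrays. It was therefore under the filter in every group, was not tested and has no fold change.

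**Figure D4:**
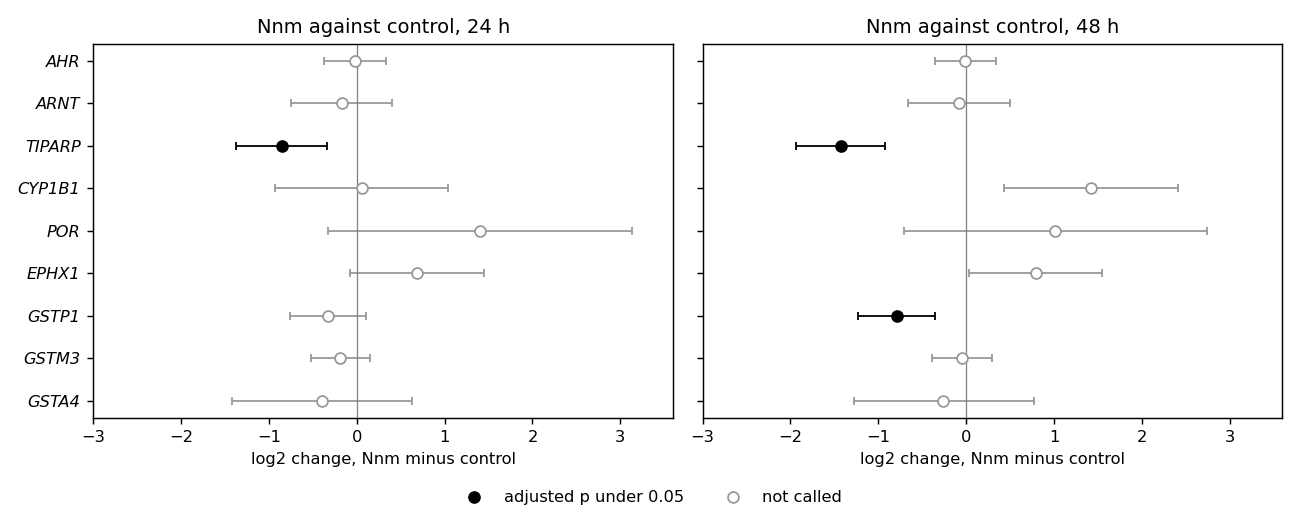
Log2 change, Nnm minus control, with its 95% interval from limma (x axis) for the 9 tested genes (y axis) at 24 h and 48 h; filled points have an adjusted p under 0.05. The filled points are TIPARP at both times, at -0.85 and -1.43, and GSTP1 at 48 h, at -0.79.

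The difference between the Nnm effects at 48 h and 24 h was called for none of the 9 genes, nor for any probe set (0% of the 22829, with 1418 at an unadjusted p under 0.05 and none of them the leading set of these genes). CYP1B1 changed by 1.42 at 48 h against 0.06 at 24 h, a difference of 1.36 (95% interval -0.03 to 2.76, adjusted p = 0.780). Without the Nnm arrays numbered 2, a fit chosen after seeing the data, that difference was 2.04 (adjusted p = 0.0103). No share of all probe sets called for the difference in that fit is given beside it. The call is therefore not read as particular to CYP1B1. TIPARP changed by -1.43 at 48 h against -0.85 at 24 h, a difference of -0.58 (-1.30 to 0.15, adjusted p = 0.783), and GSTP1 by -0.79 against -0.33, a difference of -0.47 (-1.08 to 0.15, adjusted p = 0.792).

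Time in culture alone gave no call in control cells (0% of probe sets, with 1836 at an unadjusted p under 0.05 and 12 called with the replicate block). The control arrays of 48 h and 24 h did not overlap for 3 of the 9 genes, against a background of 23.3%. GSTP1 averaged 11.62 ± 0.34 in control cells at 48 h and 12.22 ± 0.25 in control cells at 24 h, a difference of -0.60 (unadjusted p = 0.0116 and adjusted p = 0.516 in limma). CYP1B1 differed by -0.55 (adjusted p = 0.813) and TIPARP by 0.25 (adjusted p = 0.838).

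The wider pathways were described through 8 gene lists, by the probe set leading each gene. Their counts stand beside the shares of all tested probe sets called, 14.7% at 24 h and 10.2% at 48 h over all arrays, 29.3% and 22.1% with the block, and 47.0% and 42.1% without the Nnm arrays numbered 2. In AHR signalling, 8 of 14 listed genes were tested, and 1 rose and 1 fell at each time, with medians of 0.06 and 0.18. With the replicate block 2 rose and 1 fell at 48 h, and without the Nnm arrays numbered 2 it was 2 and 1 at 24 h and 4 and 1 at 48 h. NQO1, a quinone reductase induced through AHR and through NRF2, rose. It measured 12.44, 12.47 and 12.38 in Nnm cells at 24 h, against 11.18, 11.30 and 11.22 in control cells, a change of 1.19 (SE 0.24, adjusted p = 0.0168). The 48 h arrays read 12.34, 11.38 and 12.39 in Nnm cells, against 10.52, 10.68 and 10.89 in control cells, a change of 1.34 (SE 0.24, adjusted p = 0.0133). The groups did not overlap at either time, and replicate 2 was the lowest Nnm array at 48 h. The gene that fell was TIPARP. The AHR targets CYP1A1, CYP1A2, AHRR and ALDH3A1, and the ARNT relative ARNT2, stayed under the filter. CYP1A1 lay between 2.08 and 2.12 on all arrays and AHRR between 2.22 and 2.25.

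Of 31 cytochrome P450 enzymes listed, 7 were tested and none was called at either time on its leading set, with medians of -0.21 and 0.28. The block called 1 higher at 48 h, and without the Nnm arrays numbered 2, 1 rose and 3 fell at 24 h and 2 rose and 1 fell at 48 h. The riser at 24 h in that fit, and 1 of the 2 at 48 h, was CYP2S1. Its probe set passed the filter only through Nnm arrays, and its calls are not read as a result. CYP20A1, beside CYP1B1, changed by 0.31 (adjusted p = 0.300) and 0.28 (adjusted p = 0.373). A further 20 stayed under the filter, including CYP2E1, CYP2B6, CYP3A4 and CYP3A5. Among 9 electron donors 7 were tested, 0 rose and 1 fell at each time, with medians of -0.35 and -0.41. The block gave 1 riser and 3 fallers at 24 h, and without the Nnm arrays numbered 2, 1 rose at each time while 3 fell at 24 h and 5 at 48 h. At 24 h the faller was CYB5B, the cytochrome b5 of the outer mitochondrial membrane, at 9.98, 10.99 and 10.18 in Nnm cells, against 11.24, 11.26 and 11.52 in control cells (-0.95, adjusted p = 0.0432). At 48 h it was CYB5R3, the main cytochrome b5 reductase, at 10.71, 10.88 and 10.90 in Nnm cells, against 11.45, 11.35 and 11.49 in control cells (-0.60, adjusted p = 0.0169), and at 24 h its change of -0.35 was called with the block alone (adjusted p = 0.0477, against 0.0668). Neither group pair overlapped.

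Of 33 epoxide hydrolases, esterases, oxidases and reductases 15 were tested, and 2 rose and 1 fell at each time, with medians of 0.69 and 0.51. With the replicate block 8 rose and 2 fell at 24 h, and 4 rose and 2 fell at 48 h, beside 29.3% and 22.1% of all probe sets called. Without the Nnm arrays numbered 2, 5 rose and 5 fell at 24 h, and 6 rose and 4 fell at 48 h, beside 47.0% and 42.1%. ALDH3A2, the fatty aldehyde dehydrogenase, measured 11.23, 11.06 and 11.01 in Nnm cells at 24 h, against 9.77, 9.74 and 9.44 in control cells, and rose by 1.45 (adjusted p = 0.00858). After 48 h the levels were 11.54, 10.90 and 11.44 in Nnm cells, against 10.02, 9.94 and 9.51 in control cells, a rise of 1.47 (adjusted p = 0.00612). Its groups did not overlap at either time. The other riser was NQO1, and the faller was ADH5, which handles glutathione-bound formaldehyde, by 0.57 at 24 h (adjusted p = 0.0376) and by 0.56 at 48 h (adjusted p = 0.0467).

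Of 22 glutathione S-transferases 12 were tested, and the fall of GSTP1 at 48 h was the 1 call, with medians of -0.32 and -0.26. The block called 2 lower at 48 h. Without the Nnm arrays numbered 2, 6 were lower at each time and 0 and 1 higher, beside 47.0% and 42.1% of all probe sets called in that fit. The microsomal MGST1 and MGST3 changed by 0.03 and 0.05 at 24 h and by -0.03 and -0.06 at 48 h, and neither was called. GSTA1, GSTA3, GSTM1, GSTM2, GSTM4, GSTM5, GSTT2 and HPGDS stayed under the filter. The transferases of a class are close in sequence, and a probe set can read more than 1 of them.

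Of 30 other conjugating enzymes 8 were tested, with medians of -0.43 and 0.01, and 1 rose at 24 h and none was called at 48 h. In the blocked fit 2 rose and 1 fell at 24 h and 1 fell at 48 h, and without the Nnm arrays numbered 2, 1 rose at each time while 5 fell at 24 h and 4 at 48 h. SULT1C2, a sulfotransferase, rose at 24 h, at 10.19, 9.94 and 10.13 in Nnm cells, against 9.50, 9.57 and 9.10 in control cells (0.69, adjusted p = 0.0279), and changed by 0.33 at 48 h (adjusted p = 0.209). NNMT and UGT8 were not called over all arrays. Without the Nnm arrays numbered 2, NNMT was called lower at 24 h (-0.94, adjusted p = 0.0394) and higher at 48 h (0.95, adjusted p = 0.0411). UGT8 was called lower at 24 h (-0.62, adjusted p = 0.00663) and at 48 h (-0.49, adjusted p = 0.0228) in that fit.

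Of 13 efflux transporters 6 were tested, with medians of -0.21 and -0.30, and 1 rose at 24 h and none was called at 48 h. In the blocked fit 1 rose and 1 fell at 24 h and 1 rose at 48 h, and without the Nnm arrays numbered 2, 1 rose and 2 fell at 24 h and 2 rose and 3 fell at 48 h. ABCC5, a pump for cyclic nucleotides, rose at 24 h, at 8.93, 8.46 and 9.05 in Nnm cells, against 7.80, 8.29 and 8.08 in control cells (0.76, adjusted p = 0.0335), and changed by 0.66 at 48 h (adjusted p = 0.0592, and 0.0458 with the block). ABCG2, SLC47A1 and SLC47A2 stayed under the filter beside ABCC2, and ABCC4 and ABCB1 were not called over all arrays. Without the Nnm arrays numbered 2, ABCC4 (-0.50, adjusted p = 0.0412) and ABCB1 (-0.97, adjusted p = 0.0237) were called lower at 48 h. Of 11 other xenobiotic receptors and partners 6 were tested and none was called, with medians of 0.55 and 0.28. The block called 2 higher at each time, and without the Nnm arrays numbered 2, 3 rose at 24 h and 2 at 48 h. NFE2L2, which encodes NRF2, changed by 0.62 at 24 h (adjusted p = 0.309) and by 0.26 at 48 h (adjusted p = 0.707), and without the Nnm arrays numbered 2 by 1.09 (adjusted p = 0.00308) and 0.65 (adjusted p = 0.0389). KEAP1, its inhibitor, was not called over all arrays.

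**Figure D5:**
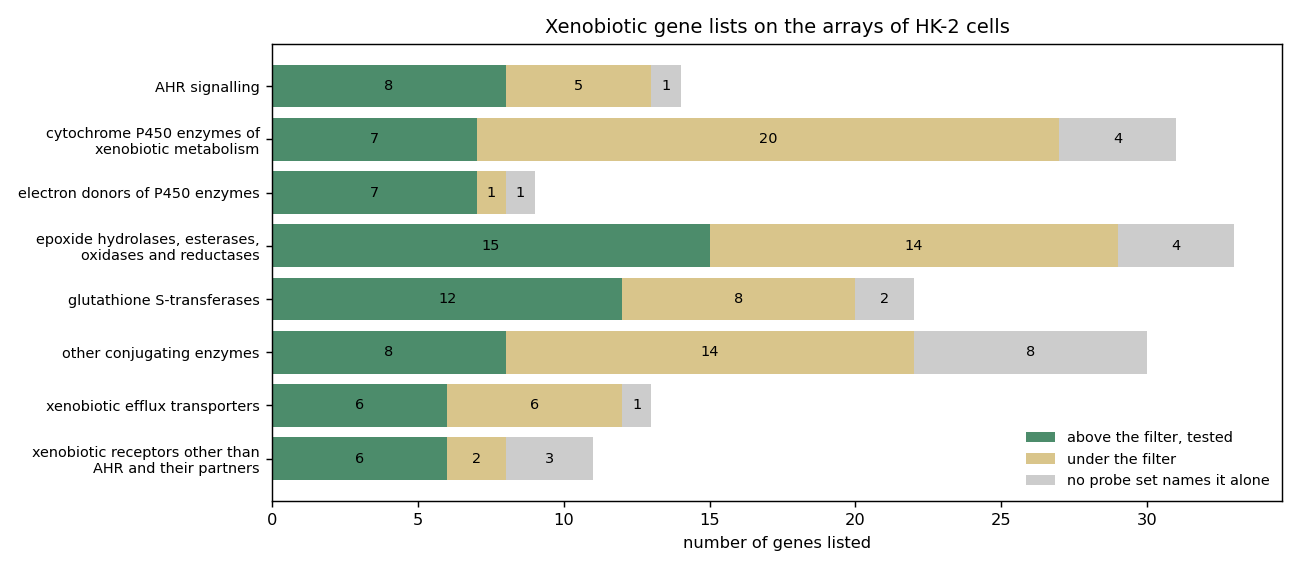
Number of genes (x axis) in each of the 8 lists of xenobiotic genes (y axis) that passed the filter and were tested, that stayed under the filter, and that no probe set names alone. Of 31 P450 enzymes 7 were tested and 20 stayed under the filter, while of 9 electron donors 7 were tested.

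The tested genes whose values over the 12 arrays were most like those of AHR were DNM3, DNAJC16 and ZNF785, with a Pearson r of 0.858, 0.854 and 0.842. Those most like CYP1B1 were POLD3 (0.967), MCM8 (0.947) and PDGFRL (0.937). Those most like TIPARP were USP25 (0.970), NDUFS1 (0.970) and SUCLG2 (0.969). The 12 points share the 4 groups, the replicate numbers and 1 normalization, and the values describe likeness over these arrays only.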

How the data were processed

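Total RNA of 12 HK-2 samples was hybridised to Affymetrix arrays, 1 sample an array. The deposited values are log2 expression per probe set, and the submitters' processing notes name GCRMA as their source. No version and no set of arrays normalized together is given in the sources used here. GCRMA forces arrays to similar distributions, so a shift common to most transcripts is hidden, and precision is limited by the number of arrays. Of 54675 probe sets, 62 controls were left out, and 22829 with log2 above 4 on at least 3 arrays were tested. Platform annotation and the RefSeq gene table of GRCh38.p14 gave names. The platform's gene assignments can be old.

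All arrays entered 1 model with 4 group means in limma 3.58.1 under R 4.3.3 (8 residual degrees of freedom). The model was first run on simulated data with independent noise on each array. The simulation held neither the shared deviations of same-numbered arrays nor the outlying Nnm arrays numbered 2, so it does not test the model under them. Nnm was set against control at 24 h and at 48 h, with their difference as a further contrast and control cells at 48 h against 24 h as another. Adjusted p-values are Benjamini-Hochberg values over all tested probe sets, called under 0.05. The 10 genes and the lists were chosen with earlier results of these data known. Named from each list were up to 4 called genes per contrast with the largest change, or, with fewer than 2 called, the 2 tested genes of highest mean, and the genes under the filter. The 3 most correlated genes were named for AHR, CYP1B1 and TIPARP. Deviations of same-numbered arrays from their group means correlated in all 18 pairs (r 0.162 to 0.669, median 0.363). For different numbers r ran from -0.655 to 0.372 (median -0.208). Deviations within a group sum to 0, so the 2 kinds of pairs are not independent. The replicate number was used as a block in an alternative fit only. Promoters came from RefSeq windows. Alternatives varied the filter, the scaling, the block, the probe set summary, array weights, the prior, the arrays of one time only, and each array left out; leaving out both Nnm arrays numbered 2 was chosen after seeing the data.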

Additional observations from a re-analysis of the deposited data

How the results depend on the processing

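The number of the 10 genes called at 24 h, 1 with all arrays, was 0 with no filter on low values, 3 with the replicate block, 4 with array quality weights, 0 from the 6 arrays of that time alone and 4 without both Nnm arrays numbered 2. It lay between 0 and 2 over the 12 fits that left out 1 array each. The number at 48 h, 2 with all arrays, was 1, 4, 5, 0 and 6 under the same alternatives, and between 1 and 3 over the leave-one-out fits. For the difference of the Nnm effects, 0 with all arrays became 1 with array quality weights and 1 without both Nnm arrays numbered 2, and lay between 0 and 1 when leaving out 1 array. No share of all probe sets is given beside these calls. Without both Nnm arrays numbered 2 the difference was also called for 2 of 6 tested efflux transporters and 2 of 8 other conjugating enzymes. It was called for 1 of 12 glutathione S-transferases, 1 of 7 P450 enzymes and 1 of 8 AHR signalling genes. In the P450 and AHR signalling lists that gene was CYP1B1. It was called for 0 of 15 tested epoxide hydrolases, esterases, oxidases and reductases, 0 of 7 electron donors and 0 of 6 other receptors and partners. With no share of all probe sets beside them, these counts are not read as a result about the lists. For control cells over time the number of the 10 genes called was 0 under every alternative run. The stricter filter, median centring, quantile normalization, and the trended and robust prior left the counts at 1 and 2, and the mean of a gene's probe sets gave 1 and 3, the added gene being CYP1B1, of whose sets 1 passed the filter only on Nnm arrays. CYP1B1 at 24 h turned to -0.47 with array quality weights and -0.58 without both Nnm arrays numbered 2, and ranged from -0.58 to 0.45 when 1 array was left out. Other changes near 0 also turned sign in those fits, with ranges of -0.06 to 0.03 for AHR at 24 h and -0.17 to 0.14 at 48 h, -0.46 to 0.09 for ARNT at 24 h and -0.20 to 0.10 at 48 h, -0.14 to 0.08 for GSTM3 at 48 h and -0.71 to 0.07 for GSTA4 at 48 h. The cause of these turns was not tested. Over all probe sets the calls, 3366 at 24 h and 2323 at 48 h, were 848 and 842 with no filter, 6700 and 5046 with the replicate block, 12093 and 11202 with array quality weights, 112 and 115 from the 6 arrays of a time, and 10730 and 9605 without both Nnm arrays numbered 2. With 3 arrays a group, intervals of the larger spreads, such as those of POR and GSTA4, span more than 1 log2 unit on either side.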

Other observations

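The vitamin D receptor gene VDR, listed among the xenobiotic receptors, was picked out after its values were seen. It measured 8.06, 4.63 and 8.41 in Nnm cells at 24 h, against 4.34, 4.29 and 4.96 in control cells, and 7.29, 4.46 and 7.66 in Nnm cells at 48 h, against 3.45, 3.51 and 3.73 in control cells. Its changes of 2.50 and 2.91 were not called over all arrays (adjusted p = 0.102 and 0.0825), were called with the replicate block (adjusted p = 0.0354 and 0.0266), and were 3.71 and 3.91 without the Nnm arrays numbered 2. Nnm replicate 2 lay with the control arrays at 24 h. At 48 h it lay above every control array of that time and under the other Nnm arrays. All control arrays of 48 h lay under the filter level of log2 4, so the size of the 48 h change is uncertain.

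The efflux pump gene ABCC10 was picked out in the same way. It measured 3.25, 6.98 and 3.97 in Nnm cells at 24 h, against 6.89, 7.13 and 7.09 in control cells. Its change at 24 h was -2.30 (adjusted p = 0.0652, and 0.0263 with the replicate block), and Nnm replicate 2 lay next to the control arrays. Nnm replicates 1 and 3 of 24 h lay under the filter level of log2 4, so the size of that change is uncertain. The 48 h values were 5.25, 6.57 and 5.48 in Nnm cells, against 6.69, 7.19 and 6.88 in control cells, a change of -1.15 that was not called (adjusted p = 0.334, and 0.183 with the block). Without the Nnm arrays numbered 2 the changes were -3.42 and -1.56 (adjusted p = 1.43e-05 and 0.000786).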
